A study of Rattus norvegicus with 13 samples.

Results

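The cell cycle and chromosome segregation families comprised 118 genes of the 14506 with a usable probe set. They were chosen by name: cyclins of types A, B, D and E, the Cdc, Cdk and Cdkn series, the centromere proteins (Cenp), the Mcm and Orc series, the condensin subunits (Ncap), the Bub, Aurk and Plk kinases and the E2f factors. No measured difference entered the rule, but the rule and the sub-families were set with earlier results of these data known. In addition, 4 of the genes had several probe sets and were represented by the brightest. A rule on names also takes genes that do not run the cell cycle. The members were therefore divided by known function into 7 cell cycle sub-families with 72 genes and 3 other sub-families with 46. The 72 were 15 genes of the replicative helicase and origin recognition, 11 G1/S cyclins and kinases, 5 E2F factors, 20 genes of mitotic entry and exit, 12 centromere proteins, 2 condensin subunits and 7 CDK inhibitors. The other 46 were 21 further CDKs and their partners, 11 genes of the Cdc42 GTPase family and 14 remaining name matches. With the background level set at the 25th percentile of the group means of all genes (3.79 to 3.84, log2), 117 members lay above it in at least 1 group. Ccnb1ip1, a ubiquitin ligase of meiotic recombination, did not.

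Levels are log2 values from Affymetrix Rat Gene 1.0 ST arrays hybridised with RNA of cultured cells of adult Sprague Dawley rats. Skin-derived precursors (SKPs), neural crest-related precursor cells of the dermis, came from the skin of the dorsal trunk, the ventral trunk and the face, with 3 independent isolates of each region. Mesenchymal stromal cells (MSCs), adherent stromal cells able to form bone, fat and cartilage, came from 4 isolates. All had been passaged 2 times, no treatment or genetic change is given for any group, and neither the tissue of the MSCs nor the media could be taken from the labels.

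A dividing cell copies its DNA once and then divides the copies between its daughters. D-type cyclins with Cdk4 and Cdk6, then E-type cyclins with Cdk2, inactivate the Rb family and release E2F factors, which switch on genes of DNA replication. The Orc, Cdc6 and Mcm proteins load the replicative helicase at origins. Cdk1 with B-type cyclins drives entry into mitosis, the centromere proteins attach chromosomes to the spindle under Bub and Aurora kinase control, and Cdc20 starts the exit. CDK inhibitors hold the kinases in check. Many of the mitotic and replication genes are transcribed only in cycling cells, so their RNA is commonly read as a mark of the share of cells in cycle. In RNA of whole cultures, fewer cycling cells and less RNA per cycling cell cannot be told apart.

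Of 13 measured markers of SKPs and dermal precursors, 9 were higher in SKPs, among them Sox2 (1.70) and Crabp1 (4.87), 1 was lower, Snai2 (-1.22), and Nes, Vcan and Fn1 were not called (-0.09 to 0.07). All 11 stromal markers of MSCs lay above background in every group, SKPs included. Dorsal array 3 stood apart. Its mean over the SKP markers was 7.56, against 9.21 to 9.57 on the other 8 SKP arrays and 6.60 to 7.75 in MSCs, and its mean over 19 genes of glycolysis and the hypoxia response was 10.41, against 8.70 to 9.66 on all other arrays. A list of 21 macrophage and leukocyte markers, of which 11 were called higher in SKPs, also varied: its mean was 4.12 to 7.19 on dorsal, 6.33 to 10.16 on facial and 5.35 to 5.68 on ventral arrays, and 4.17 to 4.76 in MSCs.

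SKPs against MSCs. The machinery of DNA replication and of mitosis was lower in SKPs than in MSCs. The CDK inhibitor gene Cdkn2b was higher, in each of the 3 regions, and so, over the 3 regions combined, were the D-type cyclin genes Ccnd1 and Ccnd3. Of the 118 members, 56 were called lower in SKPs and 10 higher at an adjusted p under 0.05. Of all 14506 genes, 12.2% were called lower, 13.1% higher and 25.3% in either direction. The median difference was -0.33 (log2) over the members and -0.02 over all genes. The fall lay in the 7 cell cycle sub-families, with 47 of 72 genes lower, 4 higher and a median of -0.85. In the 3 other sub-families 9 of 46 were lower and 6 higher, with a median of -0.05. The levels of all 9 SKP arrays were below those of all 4 MSC arrays in 36 members, a pattern held by 6% of all genes, and above them in 5, held by 6.60%. With the mean of the macrophage and leukocyte markers as a covariate, 45 of the 56 were still called lower, 5 of the 10 were still called higher and 0 were called in the opposite direction. In that fit 8.09% of all genes were called lower and 8.47% higher, and the median over the members was -0.40. Without MSC array 4 the number of members called higher was 6, and Cdkn2b was then the 1 cell cycle member called higher. The share of all genes is not given for that fit.

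**Figure D1:**
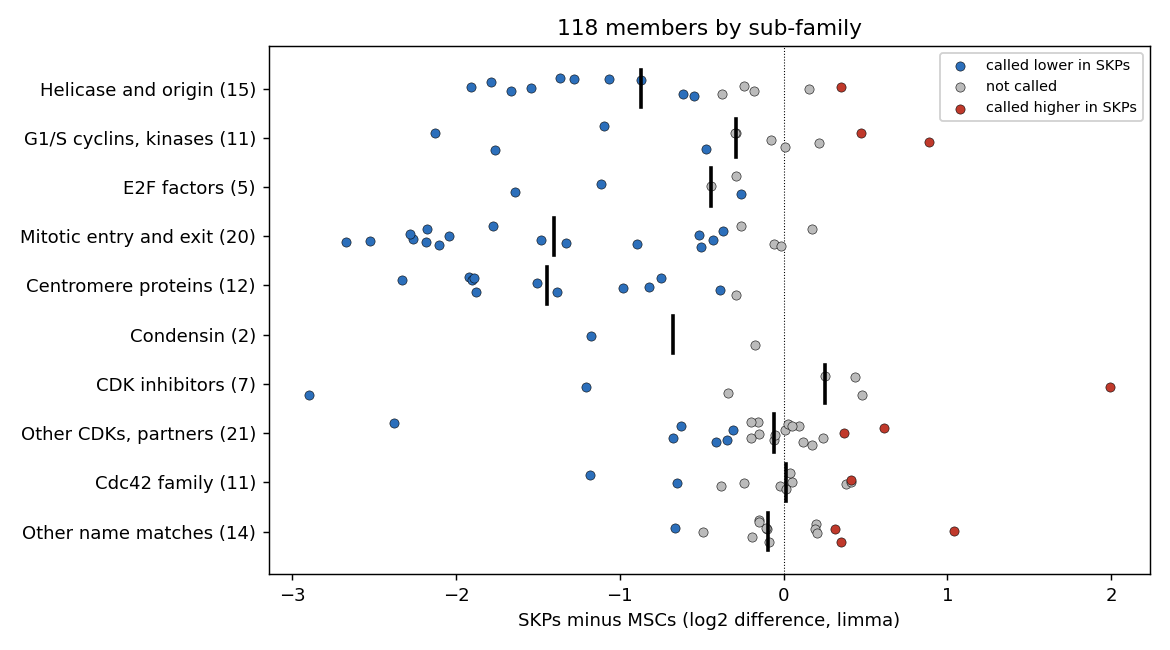
Difference between SKPs and MSCs (log2, horizontal axis) for each of the 118 members, a point each, in the 10 sub-families with the number of genes in brackets; the black line is the sub-family median and colours give the call. Mitotic and centromere genes lie furthest to the left, with medians of -1.40 and -1.44, and the 3 other sub-families are centred near 0.

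Mitotic entry and exit. Of 20 genes, 16 were lower in SKPs, against 12.2% of all genes, and 0 were higher by limma's test, also at an unadjusted p under 0.05. The median difference was -1.40. Ccnb1, cyclin B1, the partner of Cdk1 at entry into mitosis, had the largest fall. Its levels were 7.44, 6.94 and 4.97 on the dorsal arrays, 7.05, 6.20 and 6.83 on the facial arrays, 6.33, 6.36 and 6.29 on the ventral arrays, and 8.94, 9.41, 8.73 and 9.56 in MSCs. Every MSC array was above every SKP array, and the dorsal isolates were spread most, with array 3 lowest of all. The mean of the MSCs was 9.16 ± 0.39 (SD, n = 4), 6.37 times the SKP level on the linear scale (difference -2.67, SE 0.37, adjusted p = 0.000246).

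Cdc20, the activator of the anaphase-promoting complex, was at 7.06, 6.56 and 4.45 on dorsal, 6.56, 6.15 and 6.35 on facial and 5.68, 5.63 and 5.64 on ventral arrays, and at 8.32, 9.10, 7.95 and 8.76 in MSCs. The groups did not overlap, and the difference was -2.52 (SE 0.39, adjusted p = 0.000498). Cdk1, the mitotic kinase itself, was at 6.70, 6.19 and 4.81 on dorsal, 6.06, 5.52 and 5.89 on facial and 5.74, 5.41 and 5.59 on ventral arrays, and at 7.63, 8.26, 7.35 and 8.26 in MSCs. Here too the groups were apart, with a difference of -2.11 (SE 0.30, adjusted p = 0.000283). Plk1, a kinase of spindle assembly, fell by 2.28, Bub1b and Bub1, kinases of the spindle checkpoint, by 2.26 and 2.17, and Ccnb2, cyclin B2, by 2.19, each without overlap between SKP and MSC arrays.

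The promoters of Cdc20 and Cdk1 are shown because both carry the sequences known from genes of the G2 and M phases. These are the cell cycle homology region (CHR, searched as TTTGAA and TTCGAA), a site of the MuvB complex that represses such genes in resting cells, and CCAAT boxes, sites of the factor NF-Y. Each run covers 170 bases before to 30 bases after the RefSeq start of transcription in assembly GRCr8 (Cdc20 chr5:137255770-137255969, minus strand; Cdk1 chr20:19265123-19265322, plus strand), written 5′ to 3′ along the gene. Capitals mark the CHR, CCAAT and E2F matches on either strand.
Cdc20: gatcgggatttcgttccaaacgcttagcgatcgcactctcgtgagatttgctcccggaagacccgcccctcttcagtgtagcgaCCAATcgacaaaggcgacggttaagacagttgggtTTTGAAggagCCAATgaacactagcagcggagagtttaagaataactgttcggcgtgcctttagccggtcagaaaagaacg
Cdk1: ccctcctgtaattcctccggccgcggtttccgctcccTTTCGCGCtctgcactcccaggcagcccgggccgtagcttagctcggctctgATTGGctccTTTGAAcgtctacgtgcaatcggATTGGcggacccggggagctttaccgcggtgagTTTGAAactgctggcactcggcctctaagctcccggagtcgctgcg

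The remaining mitotic genes moved less. Aurkb, the Aurora kinase of the chromosomal passenger complex, fell by 1.48 (SE 0.19), and its dorsal array 1 at 7.45 lay just above the lowest MSC array at 7.42. Cdc25b, a phosphatase that activates Cdk1, fell by 0.51 (SE 0.10), and Bub3, a checkpoint protein with small variation over all 13 arrays, by 0.37 (SE 0.08), a call lost with the leukocyte covariate (adjusted p = 0.0684). The 4 genes without a call were 3 subunits of the anaphase-promoting complex, Cdc23, Cdc26 and Cdc27, and the phosphatase Cdc14a. Cdc27 differed by -0.26 (95% confidence interval from the fit -0.47 to -0.06, adjusted p = 0.0619). It was called without facial array 1 (adjusted p = 0.0469) and without MSC array 1 (adjusted p = 0.0216), and with arrays centred on their medians (adjusted p = 0.0481).

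Centromere proteins. Of 12 genes, 11 were lower in SKPs and 0 were higher by limma's test, also at an unadjusted p under 0.05, and the median difference was -1.44. Cenpi, a subunit of the inner kinetochore, was at 5.87, 5.54 and 3.91 on dorsal, 4.94, 4.93 and 5.33 on facial and 4.70, 4.91 and 4.51 on ventral arrays, and at 7.01, 7.58, 6.83 and 7.73 in MSCs. The groups were well apart, and the difference was -2.33 (SE 0.31, adjusted p = 0.000184). Cenpa, the histone H3 variant that marks the centromere, fell by 1.92 (SE 0.27, adjusted p = 0.000272), from 6.54 ± 0.45 in MSCs (SD, n = 4) to 4.68 ± 0.78, 4.88 ± 0.19 and 4.30 ± 0.41 in SKPs of dorsal, facial and ventral skin (n = 3 each). Cenpk fell by 1.90, Cenpt by 1.89, Cenpu by 1.88 and Cenpm by 1.51, all subunits of the inner kinetochore. For Cenpu the SKP means of 3.11 to 3.58 lay under the background level. Cenpc, which links centromeric chromatin to the outer kinetochore, fell by 0.39 (adjusted p = 0.018), a call that was lost without MSC array 2 (adjusted p = 0.0679) or MSC array 4 (adjusted p = 0.0711), or with the leukocyte covariate (-0.42, adjusted p = 0.078). Cenpj, which acts in building centrioles rather than at the centromere, was the gene without a call (-0.29, 95% confidence interval -0.56 to -0.02).

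Condensin was represented by 2 subunits of the condensin II complex. Ncapd3 fell by 1.18 (SE 0.18, adjusted p = 0.000505), with no overlap between SKP and MSC arrays, and Ncaph2 differed by -0.17 (SE 0.08, adjusted p = 0.171).

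Helicase and origin genes. Of 15 genes, 10 were lower in SKPs and 1 was higher, with a median of -0.87. Mcm5, a subunit of the hexameric replicative helicase, was at 7.86, 7.24 and 4.54 on dorsal, 6.97, 6.54 and 7.22 on facial and 6.48, 6.62 and 6.32 on ventral arrays, and at 8.51, 9.18, 7.84 and 8.68 in MSCs. Dorsal array 1 came above MSC array 3, so the groups overlapped, and dorsal array 3 was lower than every other array. The difference was -1.91 (SE 0.48, adjusted p = 0.0121). Mcm6, another helicase subunit, showed the same order, at 8.22, 7.75 and 6.02 on dorsal, 7.22, 7.20 and 7.49 on facial, 6.91, 7.13 and 6.83 on ventral arrays and 8.76, 9.27, 8.02 and 8.93 in MSCs, with a difference of -1.54 (SE 0.34, adjusted p = 0.00541).

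Mcm2, also of the hexamer, was at 8.07, 7.96 and 7.36 on dorsal, 7.78, 7.73 and 7.65 on facial, 6.91 to 7.14 on ventral arrays and at 8.49, 8.95, 8.33 and 8.50 in MSCs. It did not overlap between SKPs and MSCs (difference -1.06, SE 0.14, adjusted p = 0.000193), and the 3 ventral arrays were below all dorsal and facial arrays. Genes that load or start the helicase fell alongside: Cdc6 by 1.78, Mcm10 by 1.67, Cdc45 by 1.36 and Orc1, the cycle-regulated subunit of the origin recognition complex, by 1.28. Mcm7, also of the hexamer, fell by 0.87. The other subunits of the origin recognition complex did not follow Orc1. Orc2, Orc3, Orc5 and Orc6 had differences of -0.37 to 0.15 without a call, and Orc4 was higher by 0.35 (SE 0.10, adjusted p = 0.0288). The call of Orc4 was lost without MSC array 1, 2 or 4 or without ventral array 1, with adjusted p-values of 0.0537 to 0.0889, and with arrays centred on their medians (adjusted p = 0.085).

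The promoters of Mcm5, Mcm6 and Mcm2 are shown because they hold E2F matches, searched as TTTGGCGC, TTTCCCGC, TTTGCCGC and TTTCGCGC on both strands. They lie in GRCr8 at chr19:13488643-13488842 on the plus strand (Mcm5), chr13:42404323-42404522 on the minus strand (Mcm6) and chr4:122918065-122918264 on the minus strand (Mcm2), over the same 200 bases around the RefSeq start. Capitals mark E2F and CCAAT matches, and in Mcm6 and Mcm2 a pair of E2F matches on opposite strands overlap in 1 run.
Mcm5: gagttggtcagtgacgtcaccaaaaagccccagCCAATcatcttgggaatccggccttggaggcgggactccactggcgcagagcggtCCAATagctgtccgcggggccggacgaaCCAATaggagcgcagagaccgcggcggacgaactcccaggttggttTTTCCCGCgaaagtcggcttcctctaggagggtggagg
Mcm6: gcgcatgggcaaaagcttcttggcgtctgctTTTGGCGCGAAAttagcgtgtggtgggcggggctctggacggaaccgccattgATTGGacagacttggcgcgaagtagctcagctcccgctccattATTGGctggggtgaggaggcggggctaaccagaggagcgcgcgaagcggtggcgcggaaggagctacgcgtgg
Mcm2: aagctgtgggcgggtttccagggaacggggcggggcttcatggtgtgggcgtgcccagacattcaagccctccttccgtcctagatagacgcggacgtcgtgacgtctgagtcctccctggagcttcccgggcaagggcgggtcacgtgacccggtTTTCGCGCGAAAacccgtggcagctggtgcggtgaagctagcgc

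**Figure D2:**
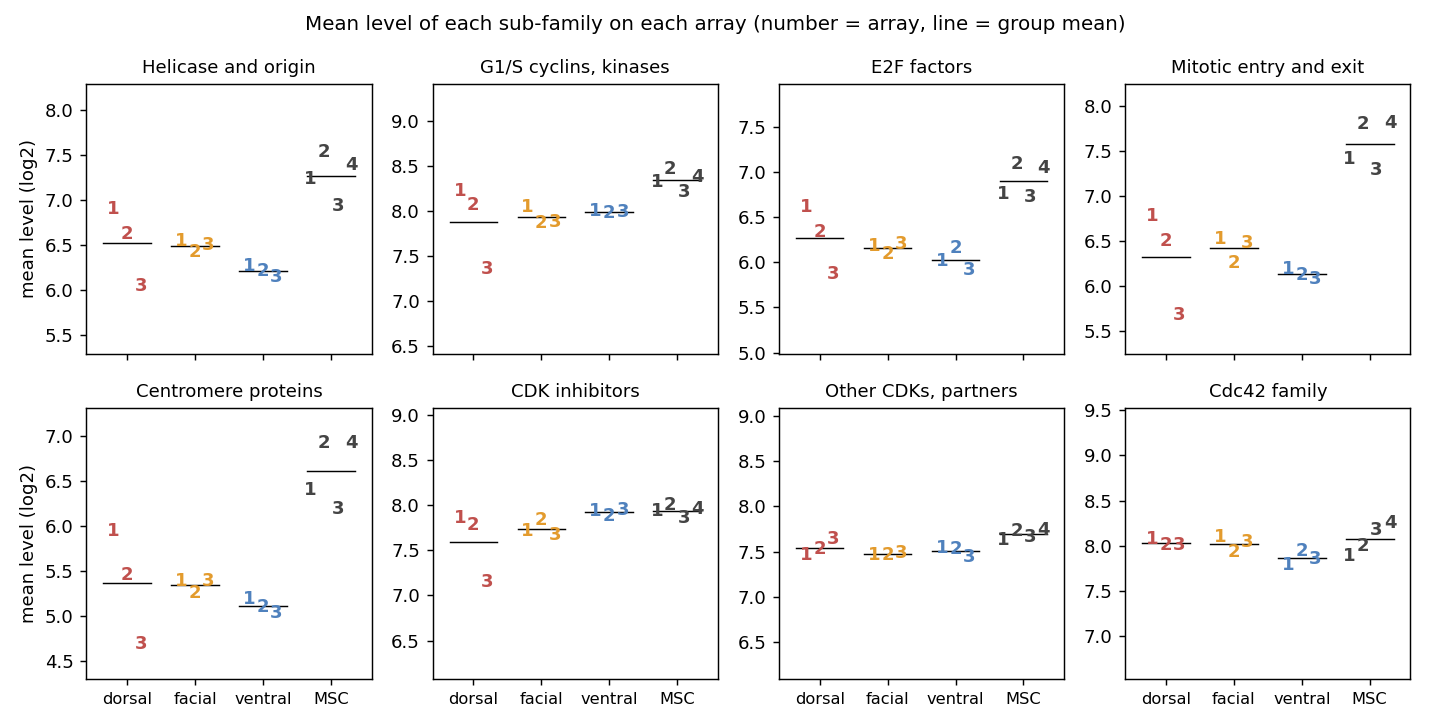
Mean level (log2, vertical axis, each panel spanning the same range) of 8 sub-families on each of the 13 arrays; a number is the array of that group and the line is the group mean. Helicase, mitotic and centromere genes are highest in the 4 MSC arrays, dorsal array 3 is lowest in these panels, and the Cdc42 family varies little.

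G1/S cyclins and kinases. Of 11 genes, 4 were lower and 2 higher in SKPs. The cyclins were divided by type: A- and E-type cyclins fell, and Ccnd1 and Ccnd3 of the D type rose. Ccna2, cyclin A2 of the S and G2 phases, fell by 2.13 (SE 0.31, adjusted p = 0.000346), and Ccna1, the germ line cyclin A, by 0.48 from a level close to background. Ccne2, cyclin E2, was at 6.71, 6.01 and 4.40 on dorsal, 5.91, 5.86 and 5.35 on facial and 5.40, 5.13 and 5.36 on ventral arrays, and at 7.16, 7.74, 6.87 and 7.55 in MSCs. The groups did not overlap (difference -1.76, SE 0.33, adjusted p = 0.00214). Ccne1, cyclin E1, fell by 1.09 (SE 0.21, adjusted p = 0.00251).

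Ccnd1, cyclin D1, the D-type cyclin that answers to growth factors, was at 12.36, 12.26 and 11.72 on dorsal, 12.15, 12.08 and 11.93 on facial and 12.03, 12.17 and 12.08 on ventral arrays. In MSCs it was at 11.73, 11.80, 10.55 and 10.72. MSC arrays 3 and 4 were far below all SKP arrays, and arrays 1 and 2 lay just above the lowest of them, dorsal array 3. It rose by 0.89 (SE 0.23, adjusted p = 0.0128) and was not called without MSC array 4 (0.73, adjusted p = 0.0535). Ccnd3 rose by 0.47 (SE 0.13, adjusted p = 0.0186) and was not called without MSC array 4 either (0.43, adjusted p = 0.0659). Both also lost the call with the leukocyte covariate (adjusted p = 0.144 and 0.232). By region, Ccnd1 was 0.91 higher in dorsal (adjusted p = 0.04999), 0.85 in facial (adjusted p = 0.0592, not called) and 0.89 in ventral SKPs (adjusted p = 0.0417). Ccnd3 was called in ventral SKPs (0.85, adjusted p = 0.00294), with 0.28 in dorsal and 0.29 in facial SKPs. Ccnd2 depended on the region and is described with the regions. The kinases themselves were not called: Cdk4 differed by 0.01 (95% confidence interval -0.22 to 0.23), Cdk6 by -0.08 (-0.80 to 0.65) and Cdk2, the partner of cyclins E and A, by -0.30 (-0.58 to -0.01, adjusted p = 0.127). Cdk2 was called lower without dorsal array 1 (-0.36, adjusted p = 0.0338). Cdc25a, the phosphatase that activates Cdk2, differed by -0.29 (adjusted p = 0.0795) and was called without MSC array 1 (-0.38, adjusted p = 0.031).

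E2F factors. Of 5 genes, 3 were lower and 0 higher by limma's test, also at an unadjusted p under 0.05. E2f7 and E2f8, repressors that E2F itself induces in S phase, fell most. E2f7 was at 6.01, 5.88 and 4.98 on dorsal, 5.86, 5.52 and 5.87 on facial and 4.98, 5.19 and 4.79 on ventral arrays, and at 6.83 to 7.62 in MSCs. The groups did not overlap (difference -1.64, SE 0.20, adjusted p = 9.1e-05), and E2f8 fell by 1.12 (SE 0.24, adjusted p = 0.00524). The call of E2f3, an activator (-0.26, SE 0.09, adjusted p = 0.0467), was lost when any of 10 single arrays was left out, with adjusted p-values of 0.0558 to 0.134, and with the leukocyte covariate (adjusted p = 0.168). E2f1, the founding activator, differed by -0.45 (adjusted p = 0.079) and was called without dorsal array 1 (-0.54, adjusted p = 0.0135) and with arrays centred on their medians (adjusted p = 0.0402). E2f5, which acts mainly as a repressor, differed by -0.29 (adjusted p = 0.267).

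CDK inhibitors. The 7 genes did not move together: 1 was higher, 2 were lower, and the median was 0.25. Cdkn2b, p15INK4b, an inhibitor of Cdk4 and Cdk6 that TGF-beta induces, had the smallest adjusted p of the members. It was at 9.15, 9.07 and 9.12 on dorsal, 9.23, 9.56 and 9.31 on facial and 10.19, 10.35 and 10.24 on ventral arrays, against 7.75, 7.60, 7.65 and 7.34 in MSCs. The lowest SKP array was more than 1 above the highest MSC array, and dorsal array 3 was level with the other dorsal arrays. The difference was 2.00 (SE 0.09, adjusted p = 5.69e-08), and 1.53, 1.78 and 2.67 in dorsal, facial and ventral SKPs taken singly.

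The Cdkn2b promoter (GRCr8 chr5:109134826-109135025, minus strand) is shown because Cdkn2b had the largest rise among the members. The 200 bases around its RefSeq start hold no E2F, CHR or CCAAT match, and the 300-base window counted for the motif shares holds 1 CHR. Genes that fell can also lack all 3 motifs in that window, as Bub1, Ccne1 and Cdkn2c did.
Cdkn2b: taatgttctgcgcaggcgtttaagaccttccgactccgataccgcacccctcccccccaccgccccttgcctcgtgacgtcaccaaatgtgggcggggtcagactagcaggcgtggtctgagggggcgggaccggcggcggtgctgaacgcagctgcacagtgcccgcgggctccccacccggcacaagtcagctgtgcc

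Cdkn2a, the neighbour of Cdkn2b that encodes p16INK4a and p19ARF, was at 8.47, 7.96 and 7.12 on dorsal, 7.48, 7.92 and 7.59 on facial and 8.36, 8.20 and 8.52 on ventral arrays, and at 7.84, 7.81, 7.13 and 7.15 in MSCs. Its difference of 0.48 was not called (SE 0.23, adjusted p = 0.153), but it was without dorsal array 3 (0.60, adjusted p = 0.0234). Ventral SKPs alone were called higher than MSCs, by 0.88 (adjusted p = 0.0432). Cdkn2c, p18INK4c, of the same INK4 class, went the other way, with a fall of 1.21 (SE 0.20, adjusted p = 0.001) from 7.90 ± 0.40 in MSCs (SD, n = 4) to 6.35 ± 0.58, 6.89 ± 0.16 and 6.83 ± 0.15 in dorsal, facial and ventral SKPs (n = 3 each). Cdkn3, despite its symbol a phosphatase that acts on CDKs and is made in dividing cells, fell by 2.90 (SE 0.53, adjusted p = 0.00168), the largest fall among the 118 members. The inhibitors of the Cip/Kip class were not called: Cdkn1a, the p53 target p21, differed by 0.44 (95% confidence interval -0.07 to 0.94), Cdkn1b, p27, by -0.34 (-0.64 to -0.04, adjusted p = 0.0946) and Cdkn1c, p57, by 0.25 (-0.05 to 0.55). Cdkn1a differed by 0.18 without MSC array 4. Cdkn1b was called lower without dorsal array 3 (-0.41, adjusted p = 0.0135). Cdkn1c was called higher with the leukocyte covariate (0.51, adjusted p = 0.0471).

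**Figure D3:**
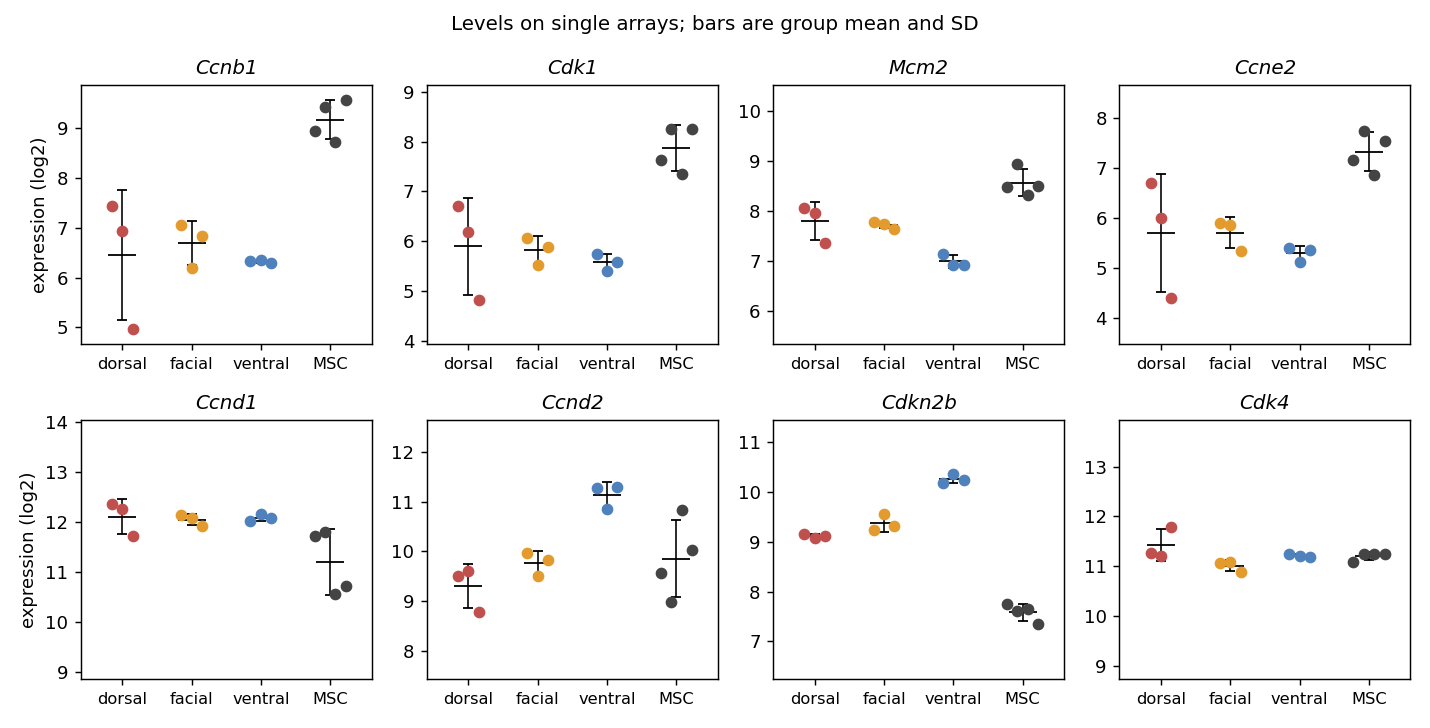
Level (log2, vertical axis, each panel spanning the same range) of 8 genes on each array, a point each, in dorsal, facial and ventral SKPs (n = 3 each) and MSCs (n = 4); bars are the group mean and SD. Ccnb1, Cdk1 and Ccne2 are separated from MSCs downward and Cdkn2b upward, Ccnd2 is highest in ventral SKPs, and Cdk4 is level.

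Motifs in promoters. RefSeq promoters of 300 bases, 250 before to 50 after the start, were at hand for 96 of the 118 members. They were compared with 27457 promoters of the same length by counting only, with no test. An E2F form was found in 7 of 12 helicase and origin promoters (58.3%), in 1 of 18 mitotic promoters and in 2.25% of all promoters. A CHR was found in 9 of 18 mitotic promoters (50%), 6 of 11 centromere promoters (54.5%), 3 of 12 helicase and origin promoters (25%) and 19.5% of all. At least 2 CCAAT boxes were found in 8 of 18 mitotic promoters (44.4%) and 11.5% of all. The members were also counted by direction. Among cell cycle members lower in SKPs, 20 of 39 promoters held a CHR and 18 of 39 at least 2 CCAAT boxes, against 2 of 18 for each among cell cycle members not lower. For the E2F forms the shares were 7 of 39 and 3 of 18. In the 3 other sub-families 4 of 39 promoters held a CHR, 4 of 39 at least 2 CCAAT boxes and 1 of 39 an E2F form. A match is a match of letters and does not show a working site.

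**Figure D4:**
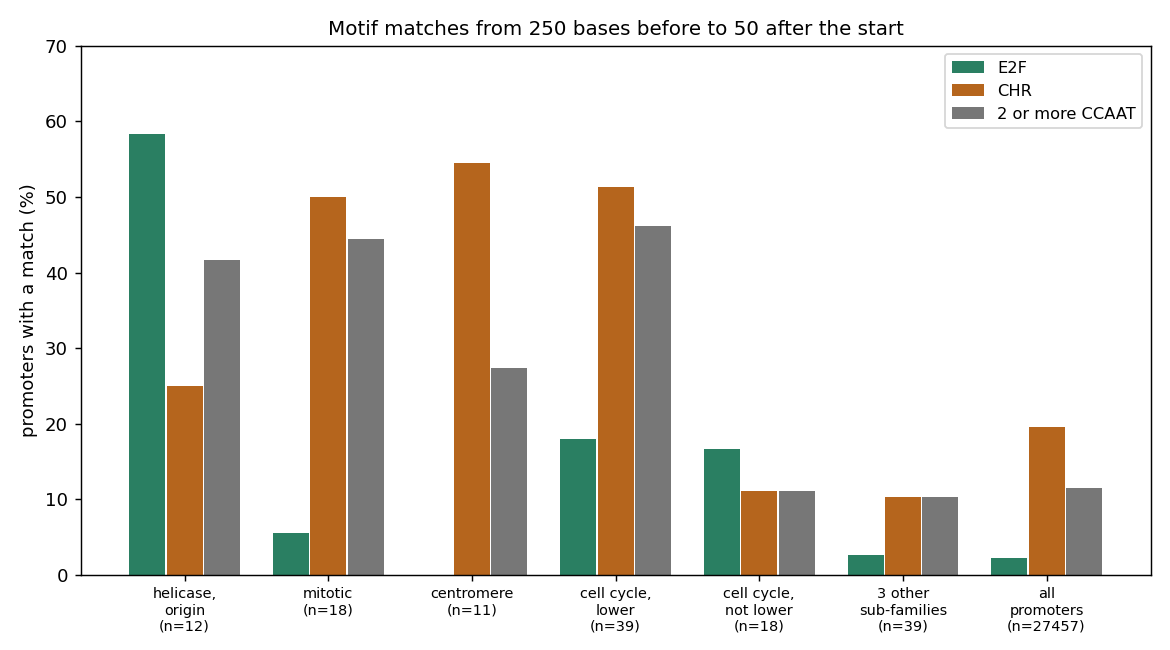
Share of promoters (percent, vertical axis from 0) with at least 1 E2F form, at least 1 CHR, or at least 2 CCAAT boxes, by set of genes, with the number of promoters under each. The E2F bar is tallest for helicase and origin genes (58.3%), and the CHR bars of mitotic and centromere genes (50% and 54.5%) exceed that of all promoters (19.5%).

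The other genes of these pathways were taken from lists that hold no member, drawn up with earlier results of these data known. Of 37 measured genes of the mitotic machinery 35 were lower in SKPs and 0 higher by limma's test, also at an unadjusted p under 0.05, with a median of -1.91. The leading ones were Prc1, which bundles microtubules of the central spindle (-2.92), Ect2, which directs cytokinesis (-2.84), Nek2, a kinase of centrosome separation (-2.59), and Ndc80 of the outer kinetochore (-2.54). Of 32 genes of the replication machinery 27 were lower and 0 higher, also at an unadjusted p under 0.05, with a median of -0.82. Rrm2, the regulated subunit of ribonucleotide reductase, fell by 2.07, Pole, a polymerase subunit, by 1.52, Gins1 of the helicase by 1.51 and Rfc4, a clamp loader, by 1.42.

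Among 20 genes of the restriction point and the p53 response, 4 were lower and 7 higher, against 12.2% and 13.1% of all genes. The leukocyte covariate gave 3 higher, against 8.47% of all genes. In the main fit the median was -0.01. Those lower were the checkpoint kinase Chek1 (-1.11), Cks1b (-0.65) and Skp2 (-0.63), which together mark p27 for destruction, and Lin54 (-0.57), the subunit of MuvB that contacts the CHR. Cks1b was not called with the leukocyte covariate (-0.61, adjusted p = 0.0863). The largest rises were those of Gadd45a (2.21), Ccng2 (0.88), Ccng1 (0.57) and Sesn1 (0.48), genes known to be induced by p53 or FoxO factors under stress or growth arrest. Ccng1 was not called with that covariate (0.51, adjusted p = 0.0551). Gadd45a was at 11.30, 11.22 and 12.22 on dorsal, 10.38, 10.71 and 9.62 on facial and 11.12 ± 0.20 (SD, n = 3) on ventral arrays, and at 9.46, 9.13, 8.58 and 7.93 in MSCs. No SKP array overlapped with an MSC array (SE 0.29, adjusted p = 0.000186).

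Members with other roles. In the 3 other sub-families 15 of 46 genes were called in either direction (32.6%, against 25.3% of all genes), with a median difference near 0. The largest difference was that of Cdk14, a CDK that pairs with cyclin Y at the membrane and acts in Wnt signalling. It was at 7.28, 7.11 and 6.84 on dorsal, 7.48, 7.23 and 7.22 on facial and 7.36, 7.05 and 6.81 on ventral arrays, and at 9.41, 9.39, 9.64 and 9.67 in MSCs. The gap between the groups was wide on every array, dorsal array 3 included (difference -2.38, SE 0.12, adjusted p = 1.25e-07). Of the 21 other CDKs and partners 6 were lower and 2 higher. Cdk5rap2, a centrosome protein, fell by 0.68, Cdk17 by 0.63 and Cdk18 by 0.41. Cdk18 was not called without MSC array 1, 3 or 4 or ventral array 3 (adjusted p 0.0527 to 0.0911). With the leukocyte covariate neither Cdk17 (-0.48, adjusted p = 0.0546) nor Cdk18 (-0.47, adjusted p = 0.0923) was called. Cdk20 rose by 0.61 (SE 0.09, adjusted p = 0.000515), with no overlap. Cdk9, a kinase of transcription elongation, differed by -0.05, Cdk16 by 0.09 and Cdk5, the neuronal CDK, by 0.18. Cdk5 was called where MSC array 1 was left out (0.22, adjusted p = 0.0457).

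In the Cdc42 family, which shapes the actin cytoskeleton, Cdc42 differed by -0.02 (95% confidence interval -0.19 to 0.15). Its effectors Cdc42ep1 and Cdc42ep5 fell by 1.18 and 0.65, and Cdc42ep1 was not called with the leukocyte covariate (-1.07, adjusted p = 0.0507). Cdc42se2 rose by 0.41 (adjusted p = 0.0318), a call lost without facial array 1, MSC array 1 or 2, or ventral array 2 (adjusted p 0.056 to 0.113), or with that covariate (adjusted p = 0.111). Of the 14 remaining name matches, Cdkn2aipnl rose by 1.04 (SE 0.18, adjusted p = 0.00136), the splicing factor genes Cdc40 and Cdc5l by 0.35 and 0.31, and Cdkn2aip fell by 0.66. Cdc40 was not called without MSC array 3 (adjusted p = 0.0783) or MSC array 4 (adjusted p = 0.0987). With the leukocyte covariate Cdc40 (0.27, adjusted p = 0.233), Cdc5l (0.35, adjusted p = 0.0542) and Cdkn2aip (-0.63, adjusted p = 0.102) were not called.

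Each region against MSCs. The 3 comparisons share the MSC arrays. Dorsal SKPs had 47 of 118 members lower and 5 higher than MSCs, against 7.76% and 8.77% of all genes (16.5% in either direction). Facial SKPs also had 47 lower and 5 higher, against 9.58% and 9.47% (19.0%). Ventral SKPs had 54 lower and 11 higher, against 11.4% and 13% (24.4% in either direction). The medians over the members were -0.38, -0.37 and -0.36, and over all genes 0.01, -0.03 and -0.04. Ventral SKPs had the lowest mean of the 3 regions in 38 of the 47 cell cycle members called lower in SKPs, dorsal in 5 and facial in 4. With all arrays, however, 3 of the 118 members were called higher in dorsal than in ventral SKPs (2.35% of all genes). In facial SKPs 1 was called higher than in ventral SKPs (2.25% of all genes). The median SD of these 47 genes was 0.734 on dorsal, 0.193 on facial, 0.141 on ventral and 0.391 on MSC arrays. Dorsal array 3 was the lowest of the 9 SKP arrays in 29 of the 47 and dorsal array 1 the highest in 31, while in the 46 genes of the other sub-families dorsal array 3 was lowest in 5 and highest in 16. Among MSCs, array 2 or 4 was highest in 45 of the 47. These orders of regions and arrays were not counted over all genes.

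These counts changed when single arrays were left out. Without dorsal array 3, dorsal SKPs had 33 members lower (7.18% of all genes) and 6 higher (8.30%), and the median over the 12 centromere genes went from -1.28 to -0.88. Without MSC array 4 they had 31 lower. The number higher in dorsal SKPs was 3 without dorsal array 1 and 2 without MSC array 3. For facial SKPs the number higher was 8 without dorsal array 3 and 3 without facial array 3, and for ventral SKPs it was 7 without ventral array 1 or 3. Where no share of all genes is given beside them, these counts do not tell whether the members or all genes changed. The macrophage and leukocyte markers were highest on the facial arrays, where 17 of the 21 were called higher than in MSCs. With their mean as a covariate facial SKPs had 27 members lower instead of 47, and 2.93% of all genes were lower instead of 9.58%. The median over the members was then -0.45 instead of -0.37, and their median SE 0.289 instead of 0.181. In ventral SKPs, where 3 of the 21 markers were called higher, it gave 51 members lower instead of 54 (10.3% of all genes).

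Between regions. In each pair of regions the share of members called was no higher than that of all genes. It was 0.847% against 1.25% for facial minus dorsal, 4.24% against 6.60% for facial minus ventral and 5.08% against 6.11% for dorsal minus ventral. These counts moved with the arrays and settings used, as given below. Cdkn2b and Cdk2ap1, an inhibitor of Cdk2, were higher in ventral SKPs than in both others, and the helicase gene Mcm2 was lower there. The mean of 11 endothelial markers was also highest on the ventral arrays, at 5.73 to 6.16, against 4.42 to 4.92 on dorsal, 4.88 to 5.18 on facial and 4.59 to 5.01 on MSC arrays. All 11 lay above background in ventral SKPs and 7 in each other group, 7 were called higher in ventral SKPs than in MSCs, and 4 higher than in dorsal and 4 higher than in facial SKPs. Their part in the ventral differences was not tested. Cdkn2b was 1.15 lower in dorsal than in ventral SKPs (SE 0.12, adjusted p = 0.000391) and 0.89 lower in facial than in ventral SKPs (SE 0.12, adjusted p = 0.00181), with no overlap in either pair. Cdk2ap1 was at 10.26, 10.26 and 10.09 on dorsal, 10.24, 10.33 and 10.10 on facial and 10.91, 10.98 and 10.94 on ventral arrays, and at 10.10, 10.19, 9.90 and 10.15 in MSCs. The ventral arrays stood above all others, by 0.74 over dorsal (SE 0.11, adjusted p = 0.00245) and 0.72 over facial SKPs (SE 0.11, adjusted p = 0.00249).

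Dorsal minus ventral SKPs gave 3 members higher and 3 lower, against 2.35% and 3.76% of all genes (6.11% in either direction). Ccnd2, cyclin D2, was at 9.50, 9.61 and 8.79 on dorsal, 9.97, 9.50 and 9.82 on facial and 11.27, 10.84 and 11.29 on ventral arrays, and at 9.57, 8.99, 10.83 and 10.02 in MSCs. The ventral arrays were above every other SKP array, and MSCs spread from the dorsal range to just under the ventral one. Dorsal SKPs were 1.83 lower than ventral ones (SE 0.38, adjusted p = 0.0166), a call lost without ventral array 1 (adjusted p = 0.0692) or 3 (adjusted p = 0.0712). The other member called lower in dorsal SKPs besides Cdkn2b was Cdk2ap1. Aurkb was higher in dorsal SKPs by 1.23 (SE 0.26, adjusted p = 0.0194), Mcm7 by 1.10 (SE 0.21, adjusted p = 0.0116) and Mcm2 by 0.80 (SE 0.19, adjusted p = 0.0304). Aurkb was not called without dorsal array 1 or ventral array 2 or 3 (adjusted p 0.0505 to 0.0894), Mcm7 without ventral array 3 (adjusted p = 0.0576), and Mcm2 without any one of dorsal arrays 1 and 2 and the 3 ventral arrays (adjusted p 0.0681 to 0.115).

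The counts of this comparison changed when single arrays were left out. Without ventral array 3, 0 members were called higher in dorsal SKPs, and without ventral array 2, 1 was. The share of all genes is not given for these fits. Dorsal array 3 was the lowest of the 9 SKP arrays in 29 of the 47 cell cycle members called lower in SKPs. Leaving it out therefore raises the dorsal means of those genes. Without it, dorsal arrays 1 and 2 remained, and 15 members were higher in dorsal than in ventral SKPs, against 2.47% of all genes. The same 3 were lower, against 3.74%. All 15 belonged to the cell cycle sub-families: Aurkb, Bub1, Bub1b, Ccnb2, Cdc20 and Plk1 of mitosis, Mcm2, Mcm7, Mcm10, Cdc6 and Cdc45 of the helicase, Cenpi of the centromere, Ccne1, E2f7 and E2f8. Bub1 differed by 1.35 (SE 0.29, adjusted p = 0.0224) without dorsal array 3 and by 0.62 (adjusted p = 0.532) with it. Cdc6 differed by 1.17 (SE 0.22, adjusted p = 0.0125) without it and by 0.55 (adjusted p = 0.496) with it. The same array had the SKP marker mean of 7.56 and the glycolysis and hypoxia mean of 10.41 given above, and their part in the result was not tested. Of the arrays left, dorsal array 1 had a macrophage and leukocyte mean of 7.19 and dorsal array 2 of 5.12, against 5.35 to 5.68 on the ventral arrays.

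**Figure D5:**
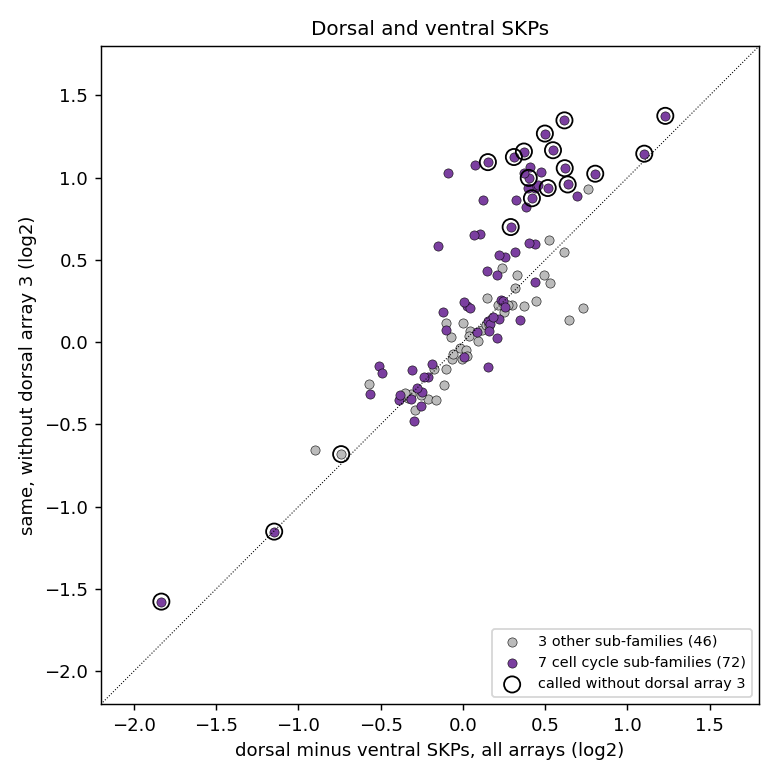
Difference between dorsal and ventral SKPs (log2) for the 118 members with all arrays (horizontal axis) and without dorsal array 3 (vertical axis); the dotted line marks equal values and rings mark members called without that array. Many cell cycle members lie above the line, with 15 ringed on the high side, while the 3 ringed on the low side, Ccnd2, Cdkn2b and Cdk2ap1, lie close to it.

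Facial minus ventral SKPs gave 1 member higher and 4 lower, against 2.25% and 4.36% of all genes (6.60% in either direction). Mcm2 was higher in facial SKPs by 0.73 (SE 0.19, adjusted p = 0.0439). It was not called without any single facial or ventral array, dorsal array 2, or MSC array 1 or 4 (adjusted p 0.0512 to 0.141). Besides Cdkn2b and Cdk2ap1, Cdc123, a factor for assembly of the translation initiation complex eIF2, was lower by 0.54 (SE 0.11, adjusted p = 0.0157) and Cdc23 of the anaphase-promoting complex by 0.43 (SE 0.10, adjusted p = 0.0273). Cdc123 lost the call without facial array 3 or ventral array 1 or 2 (adjusted p 0.0569 to 0.068), and Cdc23 without facial array 2 or 3 or any ventral array (adjusted p 0.0574 to 0.097). With the leukocyte covariate Mcm2 (adjusted p = 0.325), Cdc123 (adjusted p = 0.084) and Cdc23 (adjusted p = 0.0657) were not called. Without dorsal array 3, which enters only the shared spread, 5 members were higher and 8 lower in facial SKPs, against 3.57% and 6.19% of all genes.

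Facial minus dorsal SKPs gave 1 member called, against 0.793% of all genes called higher and 0.462% called lower (1.25% in either direction). Cdc25b was at 8.44, 8.54 and 8.22 on facial arrays and at 7.86, 7.58 and 7.60 on dorsal arrays, with ventral arrays at 7.94, 8.26 and 8.01 and MSCs at 8.43, 8.67, 8.42 and 8.75. Every facial array was above every dorsal array, and the difference was 0.72 (SE 0.14, adjusted p = 0.027). The call was lost without dorsal array 2 or 3 or facial array 1 or 2 (adjusted p 0.0617 to 0.0837) and with the leukocyte covariate (adjusted p = 0.213). By limma's test 0 members were called lower in facial SKPs, and 10 had an unadjusted p under 0.05. Without dorsal array 3, 0 were called in either direction, against 1.00% of all genes. In that fit 2 members higher and 13 lower had an unadjusted p under 0.05.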

How the data were processed

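The authors deposited log2 expression values, computed by RMA in Affymetrix Expression Console for core genes, per the labels. Limma is also listed in the submitters' processing notes, without versions. The values were used as deposited. RMA equalises the distribution of values between arrays, so a shift shared by most genes would not be seen. The precision is limited by the number of arrays. Array medians were 4.91 to 5.01. Of 29215 probe sets, 15310 had exactly 1 gene symbol, 323 several and 13582 none in the annotation given; the brightest probe set per gene left 14506 genes. Symbols were updated through Entrez identifiers or accessions.

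For each gene 4 group means were fitted over 13 arrays (R 4.3.3, limma 3.58.1), and p-values were adjusted by Benjamini-Hochberg over all genes (two-sided, called under 0.05). The SKP level is the mean of the 3 region means. The fit was tested on simulated data. The members, sub-families, pathway and marker lists were chosen with earlier results of these data known. Named were the up to 6 called members per sub-family with the largest differences, up to 2 against its majority, up to 3 least variable, all cyclins, E2F factors, inhibitors and Cdk1, Cdk2, Cdk4 and Cdk6, members called between regions, and up to 4 pathway genes each way; other names complete a small count and were chosen after their values were seen. P-values measure the spread between isolates. Sequences are from RefSeq (GRCr8), and 96 members matched by Entrez identifier, or by symbol where that was absent. Alternatives were array weights, moderation, scaling, probe set choice, a filter, thresholds, a leukocyte covariate, a replicate block and leaving out arrays.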

Additional observations from a re-analysis of the deposited data

Results flagged for a closer look

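In the 4 MSC arrays, 1 array stood far from the other 3 in 2 of the 95 named genes tested; chance alone marks about 1 in 20 such groups. For Cdk4, array 1 was at 11.09 and the others at 11.25 to 11.25, a gap of 0.995 of the range, which is small in absolute terms. For Orc1, array 3 was at 4.60 and the others at 5.74 to 5.96, a gap of 0.835 of the range. Groups of 3 were not tested.

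Differences between SKP regions were called for 9 members in 12 comparisons of the 354 tested. The shares called were no higher than those of all genes. They were 5.08% of members against 6.11% for dorsal minus ventral, 4.24% against 6.60% for facial minus ventral and 0.847% against 1.25% for facial minus dorsal SKPs. For dorsal minus ventral SKPs the differences were 1.23 for Aurkb (adjusted p = 0.0194), 1.10 for Mcm7 (0.0116), 0.80 for Mcm2 (0.0304), -1.83 for Ccnd2 (0.0166), -1.15 for Cdkn2b (0.000391) and -0.74 for Cdk2ap1 (0.00245). For facial minus ventral SKPs they were 0.73 for Mcm2 (0.0439), -0.89 for Cdkn2b (0.00181), -0.72 for Cdk2ap1 (0.00249), -0.54 for Cdc123 (0.0157) and -0.43 for Cdc23 (0.0273). For facial minus dorsal SKPs it was 0.72 for Cdc25b (0.027). Since the MSC level cancels, each is also the test that the 2 regions differ from MSCs by unequal amounts.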

How the results depend on the processing

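The fall of the cell cycle members from MSCs to SKPs held under all 24 alternatives: 35 to 62 members were called lower (35 with a log2 difference of at least 1), and no member called in both fits changed direction. Leaving out single arrays gave 51 to 59 lower and 6 to 12 higher; the leukocyte covariate gave 6 higher, the fold limit 2 and the 0.01 threshold 4. Of the 69 named genes called, 61 were called whichever array was left out. Under every alternative that kept the thresholds 53 were called, and 16 lost the call under at least 1. The labels give replicate numbers but no pairing. Residuals of same-numbered arrays correlated at -0.12 to 0.20 (median -0.01) and of others at -0.27 to 0.29. Residuals centred within such small groups cannot show whether same-numbered samples came from the same animal. With a replicate block, 50 of the 56 and 7 of the 10 kept their calls, with 3 higher in dorsal and 3 in facial SKPs. Between SKPs and MSCs 8 named genes lost the call with the block: Ccnd3, Cdc40, Cdk18, Cenpc, Cks1b (adjusted p = 0.0675), E2f3, Lin54 (adjusted p = 0.0628) and Orc4; between facial and ventral SKPs Cdc23 did (adjusted p = 0.0666). The median of the Cdc42 family (0.02) turned negative without MSC array 1 (-0.1076; -0.11 to 0.11 over single arrays left out) and with the covariate (-0.13), and that of the remaining name matches positive with the covariate (0.0137). The cause of these changes was not tested.

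For single regions, dorsal SKPs had 31 to 47 lower and 2 to 6 higher when 1 array was left out. Array weights gave 3 higher. With only the groups compared, a fit on the arrays of those groups alone, dorsal SKPs had 19 lower and 2 higher. Why the counts moved under this setting was not tested. The fold limit gave 30 lower and 2 higher, the 0.01 threshold 22 and 2. Facial SKPs had 34 to 53 lower and 3 to 8 higher without single arrays, 3 higher with centred arrays or without dorsal and facial arrays 3, 27 lower and 1 higher with the covariate, 1 higher at the fold limit, and 21 lower and 2 higher at 0.01. Ventral SKPs had 7 to 12 higher without single arrays, 2 at the fold limit and 6 at 0.01.

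Between regions the counts were small and moved most. Facial minus dorsal gave 0 to 1 higher without single arrays, and 0 with only the groups compared, without dorsal and facial arrays 3, with the covariate, at the fold limit and at 0.01. Facial minus ventral gave 0 to 5 higher and 2 to 8 lower without single arrays, 9 and 13 with array weights, 15 and 12 with only the groups compared, 3 higher after the filter, 2 after a second quantile normalisation and 4 without dorsal and facial arrays 3. It gave 0 higher and 2 lower with the covariate and at 0.01, and 0 and 0 at the fold limit. Dorsal minus ventral gave 0 to 15 higher and 2 to 5 lower without single arrays, 7 and 6 with array weights, 1 higher with only the groups compared, 11 without dorsal and facial arrays 3 and 0 at 0.01. The counts in this section stand without the share of all genes under the same alternative, which also changes. For facial minus ventral it went from 2.25% higher and 4.36% lower to 3.57% and 6.19% without dorsal array 3. The counts alone do not tell whether the members or all genes changed.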
